A study of Mus musculus with 7 samples.

Results

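Oxidative phosphorylation genes were taken as the rows of the gene table whose symbols match the families of subunits of complexes I to V. These are the Nduf, Sdh, Uqcr, Cox4 to Cox8 and Atp5 families and the mitochondrially encoded mt-Nd, mt-Co, mt-Cytb and mt-Atp genes. The rows were selected on their level, a mean over all libraries of 50 reads or more. Cox4nb, Atp5s and Atp5sl match by symbol and are members but are not subunits of the complexes. Of the 18468 genes in the table, 92 matched by symbol, 9 of these fell under the minimum, and 83 were members. Of these, 76 are encoded in the nucleus and 7 in mitochondrial DNA. Because the minimum was set on the level, the levels are given as a description. The members nearest the minimum were Ndufb4 and Uqcrq, with means of 76.4 and 130 reads, and the matching rows nearest to it from below were Cox4i2 and Atp5l, with 4.29 and 3.43.

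The RNA came from C3H10T1/2, a mesenchymal line from mouse kept for no more than 10 passages. The cells were starved of serum for 12 h and then exposed, still without serum, for 48 h to 2 μM purmorphamine (4 libraries, replicates 5 to 8) or to the vehicle, 0.02% DMSO (3 libraries, replicates 2 to 4). Purmorphamine is a small-molecule agonist of Smo, the transducer of Hedgehog signals. Ribosomal RNA was removed from total RNA, and stranded libraries were read as single ends. The comparison asks which transcripts differ after Smo is engaged.

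Oxidative phosphorylation is the process by which the inner mitochondrial membrane turns the oxidation of NADH and succinate into ATP. Complex I (NADH dehydrogenase) and complex II (succinate dehydrogenase) pass electrons to ubiquinone, complex III passes them to cytochrome c, complex IV passes them to oxygen, and complex V (ATP synthase) uses the resulting proton gradient. The complexes other than complex II are built from subunits of both genomes, and mitochondrial DNA is transcribed into long RNAs from each strand that are then cut into the individual messages.

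The libraries held from 14337225 to 14342154 reads each, since the authors had resampled the reads to a common depth. Mesenchymal markers (10 of 10 with a row, 9 tested, 4 higher and 3 lower) summed to between 211872 and 217519 reads with DMSO and between 174496 and 183997 with purmorphamine. Summed markers of skeletal muscle (4 of 7 with a row) were 26 to 33 reads with DMSO and 32 to 56 with purmorphamine, those of adipocytes (2 of 6) 47 to 65 and 19 to 28, and those of blood cells (4 of 6) 13 to 19 and 10 to 21. The epithelial list (3 of 6) went from 14 to 23 reads up to 111 to 136, nearly all of it Cdh1, whereas Krt8 and Krt14 had at most 1 read in any library. The endothelial list (5 of 5) went from 779 to 820 reads up to 1898 to 2154, nearly all of it Tek, with Pecam1 and Kdr at 5 reads or fewer and Cdh5 listed at 0 with DMSO and at 21 to 26 with purmorphamine. The part of these markers in the results on the members was not tested. Nothing in the labels says that the libraries of a group came from separate cultures, so the p-values measure the spread between libraries, which may be technical. In bulk RNA, fewer cells with a transcript and less of it per cell cannot be told apart.

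Transcripts for oxidative phosphorylation were mostly slightly lower with purmorphamine. Of the 83 members, all of which passed the filter on low counts, 49 (59.0%) fell, 5 (6.02%) rose and 29 were not called by the quasi-likelihood test of edgeR at a threshold of 0.2 on the p-value adjusted by Benjamini-Hochberg. This is the false discovery rate that the study had used. Of all 12388 genes tested, 31.1% were called lower and 31.4% higher. The median log2 fold change of the members was -0.15, a change of -9.70%, against 0.0038 for all genes tested, and 72 members lay below 0. The changes were small. At 1.5-fold or more, 1 member was called, mt-Nd6, where 15.4% of all genes tested were. After scaling between libraries, every purmorphamine library lay below every DMSO library for 33 members (25.0% of all genes tested did so) and above for 1, Ndufb7 (24.2%). Leaving out DMSO replicate 4 brought the number called lower to 37, and 34 of the 49 were called lower in each of the 16 fits made, that is, the reported one and 15 with another scaling, filter or tool or with 1 library left out. In place of 5, the number of members called higher was 2 without DMSO replicate 3 and 3 without DMSO replicate 2 or without purmorphamine replicate 5.

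**Figure D1:**
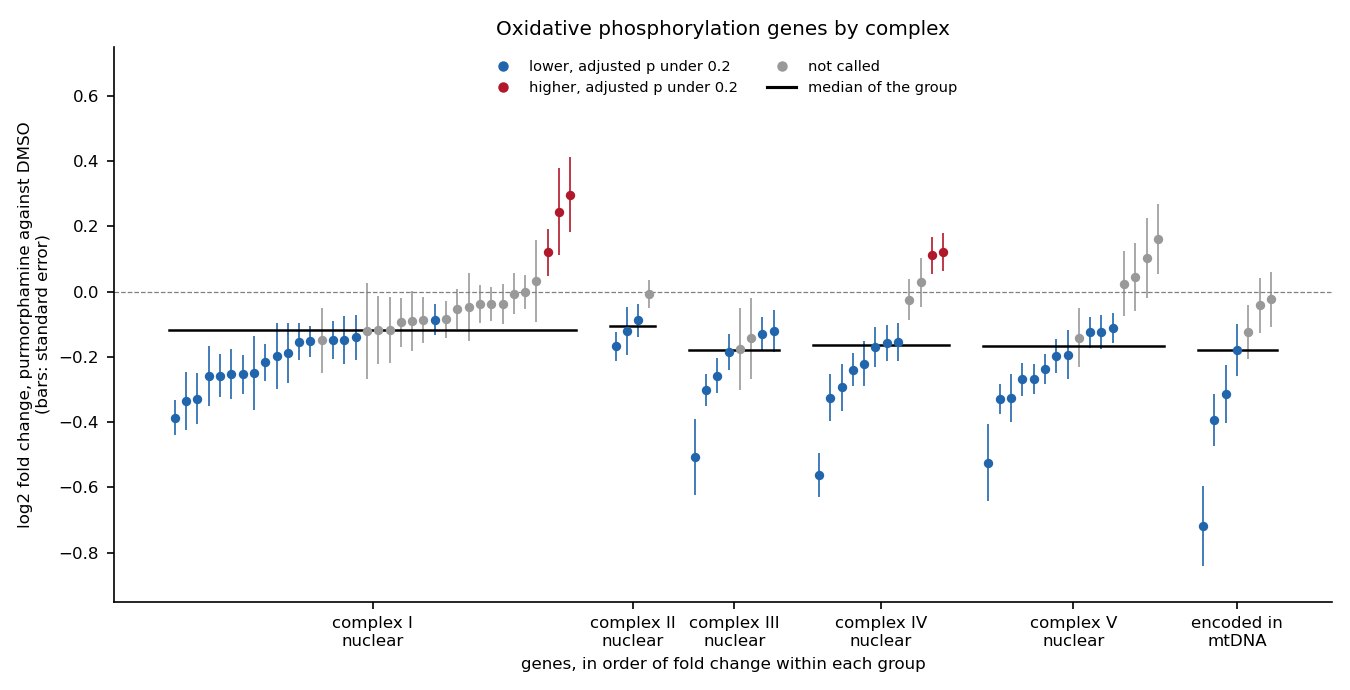
Log2 fold change of each of the 83 members with purmorphamine against DMSO (vertical axis), with bars for the standard error and genes ordered within each complex; blue marks genes called lower, red genes called higher and grey genes not called at an adjusted p under 0.2. The black lines mark the medians, which lie between -0.10 (complex II) and -0.18 (complex III and the mitochondrially encoded genes).

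Members of each complex fell. For comparison, 31.1% of all genes tested were called lower and 31.4% higher. Among nuclear members of complex I, 17 of 36 (47.2%) fell and 3 (8.33%) rose, with a median log2 fold change of -0.12. In complex II, 3 of 4 (75%) fell and 0 rose, with a median of -0.10. For complex III, 6 of 8 (75%) fell and 0 rose, with a median of -0.18. Complex IV had 8 of 12 (66.7%) lower and 2 (16.7%) higher, with a median of -0.16. The 2 were Cox7a2l and Cox4nb, and Cox4nb is not a subunit of complex IV. Complex V had 11 of 16 (68.8%) lower and 0 higher, with a median of -0.17. Atp5s and Atp5sl, counted there by their symbols, were not called. The differences between complexes were not tested. Summed over their nuclear members, the reads changed after scaling by -0.13 on the log2 scale for complex I, -0.06 for complex II, -0.20 for complex III, -0.14 for complex IV and -0.21 for complex V. Together the nuclear members took 0.650% ± 0.0197 (SD, n = 3) of the reads with DMSO and 0.599% ± 0.0183 (SD, n = 4) with purmorphamine.

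The upstream sequences of 4 nuclear members that fell are shown because they represent 3 complexes and differ in the motifs found: Cox5a, the largest decrease among nuclear members, Cox6a1, Sdhd and Atp5g3. Each is the 250 bases before the RefSeq start of the gene in GRCm38.p6, read 5′ to 3′ on the gene's strand. Capitals mark matches to the motif of NRF1 (nuclear respiratory factor 1), which is GCGC followed by any base and then TGCGC, or to TCAAGGTCA, the motif of the estrogen-related receptors (ERR), on either strand.
Cox5a (chr9:57520982-57521231, plus strand): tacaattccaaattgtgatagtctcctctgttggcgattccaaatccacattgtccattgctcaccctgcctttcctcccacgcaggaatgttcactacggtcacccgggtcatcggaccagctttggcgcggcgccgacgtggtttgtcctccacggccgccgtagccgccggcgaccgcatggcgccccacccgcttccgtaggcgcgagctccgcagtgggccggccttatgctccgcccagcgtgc
Cox6a1 (chr5:115348959-115349208, minus strand): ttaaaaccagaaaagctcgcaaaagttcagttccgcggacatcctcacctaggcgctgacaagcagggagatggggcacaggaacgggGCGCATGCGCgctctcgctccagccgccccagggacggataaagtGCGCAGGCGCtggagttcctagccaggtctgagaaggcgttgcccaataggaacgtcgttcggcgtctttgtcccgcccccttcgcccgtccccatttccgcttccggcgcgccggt
Sdhd (chr9:50603850-50604099, minus strand): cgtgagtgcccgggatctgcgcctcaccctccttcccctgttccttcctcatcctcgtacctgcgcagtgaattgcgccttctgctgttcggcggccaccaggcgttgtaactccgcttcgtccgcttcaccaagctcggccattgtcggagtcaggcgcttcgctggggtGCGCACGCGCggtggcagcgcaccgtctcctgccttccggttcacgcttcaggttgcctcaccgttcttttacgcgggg
Atp5g3 (chr2:73911327-73911576, minus strand): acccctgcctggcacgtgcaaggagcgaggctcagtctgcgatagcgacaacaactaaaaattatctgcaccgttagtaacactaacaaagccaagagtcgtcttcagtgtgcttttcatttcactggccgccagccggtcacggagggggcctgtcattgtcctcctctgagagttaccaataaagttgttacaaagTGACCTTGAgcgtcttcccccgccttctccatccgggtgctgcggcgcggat
The Cox6a1 stretch holds the NRF1 motif at -162 and at -117 from the start, and the Sdhd stretch holds it at -79. The matches at -117 and -79 are written as the complement of the motif read in reverse, which is GCGCA, any base and then GCGC. In Atp5g3 the ERR motif begins at -52 and is written as its complement, and an NRF1 match begins at base 13 of the gene, past the stretch shown. In Sdhd an ERR match begins at base 37. The Cox5a stretch holds neither motif.

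Promoters in RefSeq (250 bases before to 50 after the start) could be matched by symbol to 64 of the 76 nuclear members, of which 36 fell and 28 did not. The NRF1 motif was found in 17 of these 64 (26.6%) and in 5.19% of the 27025 genes with a promoter. These 27025 genes were not selected on their level, as the members were. The share of each motif among genes of similar level was not computed. It was found in 9 of the 36 members that fell (25.0%) and in 8 of the 28 others (28.6%). AAGATGGCG, the motif of YY1, was found in 8 members (12.5%) and in 1.64% of all genes. The ERR motif was found in 2 members (3.12%), Atp5g3 and Sdhd, and in 0.466% of all genes. CCGGAAGTG, the motif of GABPA, was found in 2 members and in 2.25% of all genes, and GACCACCCA, the motif of the Gli factors, in 0 members and 0.289% of all genes. No match says only that these letters are not in the window.

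In complex I the genes that fell most were Ndufa4, Ndufb6 and Ndufa1. Ndufa4 (mm9, chromosome 6 from 11850173 to 11857646) was named as a complex I subunit and was later found to copurify with complex IV. It had 2145, 2002 and 2226 reads with DMSO and 1773, 1565, 1653 and 1730 with purmorphamine. No library of one group reached the other, and the log2 fold change was -0.39 (SE 0.054, adjusted p = 1.72e-05 from edgeR). Ndufb6 and Ndufa1 encode small accessory subunits of the membrane arm. Ndufb6 had 361, 306 and 370 reads with DMSO and 289, 256, 310 and 278 with purmorphamine (log2 fold change -0.33, SE 0.089, adjusted p = 0.0055). For Ndufa1 the reads were 383, 415 and 461 against 365, 361, 335 and 321 (log2 fold change -0.33, SE 0.079, adjusted p = 0.0026), again without overlap.

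The core subunits Ndufs1 and Ndufv1 were called in opposite directions. Ndufs1, the largest iron-sulfur subunit, had 2039, 1907 and 1851 reads with DMSO and 1813, 1741, 1776 and 1857 with purmorphamine (log2 fold change -0.15, SE 0.048, adjusted p = 0.016). Ndufv1, which binds NADH and FMN, rose from 570, 568 and 596 reads to 675, 720, 565 and 638 (log2 fold change 0.12, SE 0.072, adjusted p = 0.184). The lowest purmorphamine library lay below every DMSO library, and the call was lost when any of DMSO replicates 2 or 3 or purmorphamine replicates 5 or 6 was left out, and with limma-voom, with DESeq2 and with no filter on low counts. Ndufa11 rose from 143, 168 and 193 reads to 224, 250, 173 and 176 (log2 fold change 0.24, SE 0.13, adjusted p = 0.147), with overlap and with its call lost on the removal of the same libraries. Ndufb7, an accessory subunit that carries disulfides, had 139, 158 and 144 reads with DMSO and 219, 200, 162 and 166 with purmorphamine. It rose without overlap (log2 fold change 0.30, SE 0.12, adjusted p = 0.0438). For both Ndufa11 and Ndufb7, purmorphamine replicates 5 and 6 were well above replicates 7 and 8. The other 29 nuclear members of complex I had log2 fold changes between -0.26 and 0.03, and 13 of them fell.

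The 4 genes of complex II, the only complex with all its subunits encoded in the nucleus, did not move alike. Sdhd, a membrane anchor, had 1535, 1562 and 1516 reads with DMSO and 1402, 1416, 1380 and 1460 with purmorphamine. The groups did not overlap, and the log2 fold change was -0.17 (SE 0.044, adjusted p = 0.0053). Sdhc, the other anchor, had 1532, 1458 and 1569 against 1537, 1496, 1381 and 1495 (log2 fold change -0.09, SE 0.050, adjusted p = 0.163). Sdhb, the iron-sulfur subunit, had 487, 473 and 493 against 467, 508, 405 and 462 (log2 fold change -0.12, SE 0.073, adjusted p = 0.189). Both were called lower with overlapping groups, and both calls were lost when any of DMSO replicates 2 or 4 or purmorphamine replicates 7 or 8 was left out, that of Sdhb also without DMSO replicate 3 or purmorphamine replicate 5. Both were also lost with DESeq2, with library totals alone and with no filter on low counts, and that of Sdhb with at least 10 counts required in every library. Sdha, the flavoprotein that oxidizes succinate, had 4397, 4153 and 4359 reads with DMSO and 4418, 4499, 4357 and 4416 with purmorphamine. Its log2 fold change was -0.0077 (SE 0.043, adjusted p = 0.905) and was positive when libraries were scaled by their totals alone.

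In complex III, Uqcrq, which encodes a small subunit, had 136, 159 and 166 reads with DMSO and 128, 115, 101 and 103 with purmorphamine (log2 fold change -0.51, SE 0.12, adjusted p = 0.0017). Uqcrc2, a core protein of the matrix side (mm9, chromosome 7 from 127778490 to 127803192), had 2294, 2258 and 2373 against 1942, 1809, 2030 and 1961 (log2 fold change -0.30, SE 0.050, adjusted p = 9.24e-05). Both fell with no overlap between the groups. Uqcrb, a small subunit close to the ubiquinone site, fell from 1427, 1410 and 1356 reads to 1192, 1115, 1261 and 1263 (log2 fold change -0.26, SE 0.054, adjusted p = 0.00079). Uqcrfs1, the Rieske iron-sulfur protein, had 886, 911 and 931 reads with DMSO and 885, 814, 787 and 821 with purmorphamine (log2 fold change -0.18, SE 0.054, adjusted p = 0.0103). Uqcrc1, the partner of Uqcrc2, was nearer to its DMSO level at 922, 956 and 994 against 945, 985, 794 and 917 (log2 fold change -0.12, SE 0.064, adjusted p = 0.139), and its call was lost without DMSO replicate 3, DMSO replicate 4 or purmorphamine replicate 7, with DESeq2 and with library totals alone. Uqcrh, the hinge protein that helps cytochrome c dock, had 3721, 3790 and 4042 against 3951, 3570, 3489 and 3540 (log2 fold change -0.13, SE 0.052, adjusted p = 0.0511), a call that was lost without DMSO replicate 4 and with library totals alone. Uqcr10 and Uqcr11 were not called, with log2 fold changes of -0.14 and -0.17.

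Complex IV held the largest decrease among the nuclear members. Cox5a (mm9, chromosome 9 from 57368839 to 57380431), a subunit on the matrix side, had 1322, 1201 and 1220 reads with DMSO and 894, 750, 923 and 926 with purmorphamine. Every purmorphamine library lay far below every DMSO library, with means of 1248 ± 65.1 (SD, n = 3) and 873 ± 83.4 (SD, n = 4). The log2 fold change was -0.56 (SE 0.069, adjusted p = 3.51e-06 from edgeR), and a two-sided exact permutation test, which has 35 possible assignments, gave p = 0.0286, the smallest it allows. Its partner in the same layer of the complex, Cox5b, had 471, 430 and 490 reads against 390, 422, 410 and 423 (log2 fold change -0.22, SE 0.069, adjusted p = 0.0149). Cox4i1, the subunit through which ATP slows the enzyme, had 1763, 1823 and 1993 against 2136, 2201, 1732 and 1772, with purmorphamine replicates 5 and 6 above and 7 and 8 below most DMSO libraries. Its log2 fold change was 0.03 (SE 0.075, adjusted p = 0.788) and took either sign as single libraries were left out. Cox7c fell from 561, 564 and 553 reads to 488, 516, 469 and 414 (log2 fold change -0.29, SE 0.071, adjusted p = 0.0028).

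Several subunits of complex IV exist as a form found in most tissues and a form of muscle, lung or testis, and in these cells the reads came nearly all from the former. Cox6a1 had 704, 654 and 780 reads with DMSO and 606, 635, 531 and 579 with purmorphamine (log2 fold change -0.33, SE 0.072, adjusted p = 0.0013), whereas Cox6a2 had at most 1 read in any library. Cox6b1 had 1200, 1186 and 1273 against 1180, 1158, 1031 and 1153 (log2 fold change -0.16, SE 0.055, adjusted p = 0.0258), and Cox6b2 had at most 1 read. Cox7a2 had 1125, 1124 and 1228 against 1157, 1120, 993 and 1034 (log2 fold change -0.15, SE 0.059, adjusted p = 0.0409), and its call was lost without DMSO replicate 4. Cox7a1 had 1 to 7 reads. Cox8a had 742, 778 and 864 against 850, 820, 744 and 815 (log2 fold change -0.02, SE 0.063, adjusted p = 0.782, positive under scaling by totals and after removal of the trend in GC content and length), and Cox8b had at most 2 reads. Cox4i2 had 3, 7 and 8 reads with DMSO and 5, 3, 3 and 1 with purmorphamine, and Ndufa4l2 at most 2. None of the rows with so few reads was tested. Cox7a2l, which helps to join complexes III and IV into supercomplexes, rose from 928, 892 and 938 reads to 1050, 1086, 929 and 1040 (log2 fold change 0.11, SE 0.057, adjusted p = 0.12), and Cox4nb, the neighbor of Cox4i1 and a subunit of a complex of the endoplasmic reticulum rather than of complex IV, rose from 727, 770 and 723 to 783, 886, 855 and 805 (log2 fold change 0.12, SE 0.058, adjusted p = 0.0939). The call of Cox7a2l was lost without DMSO replicate 3 and with DESeq2, and that of Cox4nb without DMSO replicate 2 or 4 and after removal of the trend in GC content and length.

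In complex V, 11 members fell and 5 were not called, among the latter Atp5d, the δ subunit of the central stalk, with a log2 fold change of 0.02. Atp5b, the catalytic β subunit (mm9, chromosome 10 from 127520129 to 127527647), was the nuclear member with the most reads per kilobase of annotated exons, a mean of 3664 with DMSO. It had 15399, 15075 and 16093 reads with DMSO and 13534, 13558, 12689 and 13514 with purmorphamine (log2 fold change -0.27, SE 0.046, adjusted p = 0.000128). Atp5a1, the α subunit, had 8097, 8004 and 8505 against 7911, 7985, 7245 and 7960 (log2 fold change -0.12, SE 0.048, adjusted p = 0.0405). The γ subunit gene Atp5c1, the central stalk, had 3259, 3143 and 3354 against 3135, 2999, 3145 and 3157 (log2 fold change -0.11, SE 0.046, adjusted p = 0.0532), and its call was lost without DMSO replicate 4 and with library totals alone. Atp5e, the ε subunit of the same stalk, fell from 563, 571 and 537 reads to 519, 457, 450 and 412 (log2 fold change -0.32, SE 0.074, adjusted p = 0.0016). Atp5j, a subunit of the outer stalk, had 1749, 1643 and 1741 against 1664, 1586, 1699 and 1542 (log2 fold change -0.12, SE 0.051, adjusted p = 0.0559), and its call was lost without DMSO replicate 2 and with library totals alone.

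Atp5g1, Atp5g2 and Atp5g3 encode the same mature protein, subunit c of the rotor ring, with different import peptides. Atp5g3 carried the most reads, with 2453, 2385 and 2551 for DMSO and 2041, 1970, 2049 and 2050 for purmorphamine (log2 fold change -0.33, SE 0.045, adjusted p = 1.48e-05). Atp5g1 had 330, 358 and 447 against 278, 328, 219 and 263 (log2 fold change -0.52, SE 0.12, adjusted p = 0.0016). The groups did not overlap for either gene, though the nearest Atp5g1 values were 330 and 328. Atp5g2 had 197, 200 and 207 against 229, 269, 166 and 230, with a log2 fold change of 0.10 (SE 0.12, adjusted p = 0.519). The difference in response between Atp5g2 and the other two was not tested. Atp5l, the gene of subunit g, had 0, 3 and 3 reads against 9, 3, 2 and 4. Since how reads matching several places were counted is not given in the sources used here, Atp5l and other members with processed copies are uncertain in level.

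**Figure D2:**
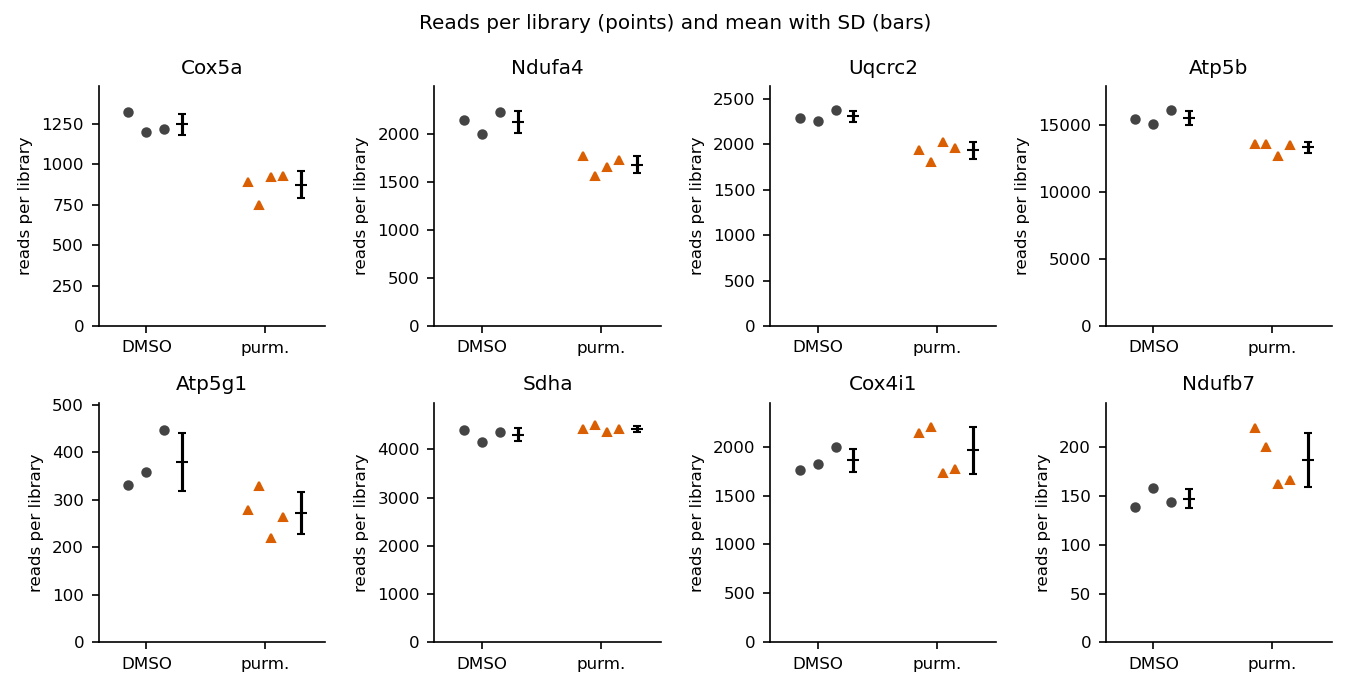
Reads per library (vertical axes, starting at 0) for 8 nuclear members with DMSO (circles, n = 3) or purmorphamine (triangles, n = 4), with the mean and SD beside each group. Cox5a, Ndufa4, Uqcrc2, Atp5b and Atp5g1 show groups that do not overlap below DMSO, Sdha and Cox4i1 overlap, and Ndufb7 lies above.

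The 7 genes encoded in mitochondrial DNA did not move as a block. Together they took 2.40% ± 0.307 (SD, n = 3) of the reads with DMSO and 2.21% ± 0.229 (SD, n = 4) with purmorphamine, with overlap. Of the 7, 4 (57.1%) fell, 0 rose and 3 were not called, beside 31.1% lower and 31.4% higher of all genes tested. Their median log2 fold change was -0.18. No matching row carried the symbol mt-Co2, mt-Co3, mt-Atp6, mt-Atp8, mt-Nd3 or mt-Nd4l, so these genes were not analysed here. The level of mt-Co1, the catalytic subunit of complex IV, was 85690 reads per kilobase of gene with DMSO and that of mt-Cytb, the only subunit of complex III from this genome, was 67478, while mt-Nd6 had 351.

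From mt-Nd2 on, the log2 fold change was lower with each analysed gene further along the heavy strand, although the differences between neighbors were not tested. No member lies between mt-Co1, which ends at base 6872, and mt-Nd4, which starts at base 10167. The analysed messages of the heavy strand lie in the order mt-Nd1, mt-Nd2, mt-Co1, mt-Nd4, mt-Nd5 and mt-Cytb. The first of these, mt-Nd1, had 52981, 43174 and 40565 reads with DMSO and 45693, 39415, 47771 and 39957 with purmorphamine (log2 fold change -0.12, SE 0.084, adjusted p = 0.245). For mt-Nd2 the reads were 26845, 22349 and 20329 against 24166, 22436, 26497 and 21083 (log2 fold change -0.02, SE 0.085, adjusted p = 0.845). For mt-Co1 they were 149769, 130009 and 117397 against 137616, 120941, 150768 and 122064 (log2 fold change -0.04, SE 0.084, adjusted p = 0.719). These 3 genes overlapped throughout, and both mt-Nd2 and mt-Co1 took a positive value when libraries were scaled by their totals alone.

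Further along, mt-Nd4 had 27054, 23185 and 20808 reads with DMSO and 22637, 20466, 23770 and 19620 with purmorphamine (log2 fold change -0.18, SE 0.079, adjusted p = 0.0762). It was called lower, with overlap, and the call was lost without DMSO replicate 2 or purmorphamine replicate 8 and with DESeq2. Next, mt-Nd5 fell from 48367, 42357 and 37219 reads to 37372, 33319, 40500 and 30625 (log2 fold change -0.31, SE 0.089, adjusted p = 0.0084). The last, mt-Cytb, had 87026, 75850 and 68709 reads with DMSO and 62690, 57039, 68462 and 54624 with purmorphamine. Its groups did not overlap, and the log2 fold change was -0.39 (SE 0.080, adjusted p = 0.00069), with p = 0.0571 in the two-sided exact permutation test. The only message of the light strand, mt-Nd6, had 200, 191 and 155 reads with DMSO and 118, 93, 127 and 119 with purmorphamine. Its log2 fold change of -0.72 (SE 0.12, adjusted p = 0.00013) was the largest decrease among all members.

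Within a library the mitochondrial reads kept nearly constant proportions in each group. Per 100 mt-Co1 reads, mt-Cytb had 58.1, 58.3 and 58.5 reads with DMSO and 45.6, 47.2, 45.4 and 44.8 with purmorphamine. The mean with DMSO was 58.3 ± 0.211 (SD, n = 3), and all purmorphamine libraries lay far below. On this scale mt-Nd5 went from 32.2 ± 0.447 (SD, n = 3) to 26.7 ± 1.09 (SD, n = 4), mt-Nd4 from 17.9 ± 0.173 to 16.3 ± 0.499, mt-Nd1 from 34.4 ± 1.09 to 32.6 ± 0.635 and mt-Nd6 from 0.137 ± 0.0082 to 0.0861 ± 0.0085, each with no overlap. For mt-Nd1, however, the groups nearly touched, at 33.208 in DMSO replicate 3 and 33.203 in purmorphamine replicate 5. For mt-Nd2 the values were 17.5 ± 0.392 and 17.7 ± 0.559, with overlap. With mt-Nd2 as the denominator, mt-Cytb went from 334 ± 8.41 to 258 ± 2.40 per 100 reads without overlap, and mt-Co1 overlapped. Both denominators were chosen after the values had been seen, so no test is given. Reads on the mitochondrial ribosomal RNA rows, after the removal of ribosomal RNA, were 0.0292% ± 0.0044 (SD, n = 3) of the library with DMSO and 0.0355% ± 0.0035 (SD, n = 4) with purmorphamine. Their part in these ratios was not tested.

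In the table the window of each of the 7 genes reached 200 bases beyond the GENCODE M21 gene on either side. The window of mt-Nd6 (chromosome M from 13352 to 14270) thus overlapped those of mt-Nd5 (11542 to 13765) and mt-Cytb (13945 to 15488). These genes lie on the other strand from mt-Nd6, and reads were counted on the sense strand of each gene. Reads on mt-Nd6 were 93 to 200 per library, beside means of 38537 for mt-Nd5 and 67771 for mt-Cytb. Whether any reads of these neighbors were assigned to the strand of mt-Nd6 was not tested. Whether reads in the added flanks were counted is not given in the sources used here.

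**Figure D3:**
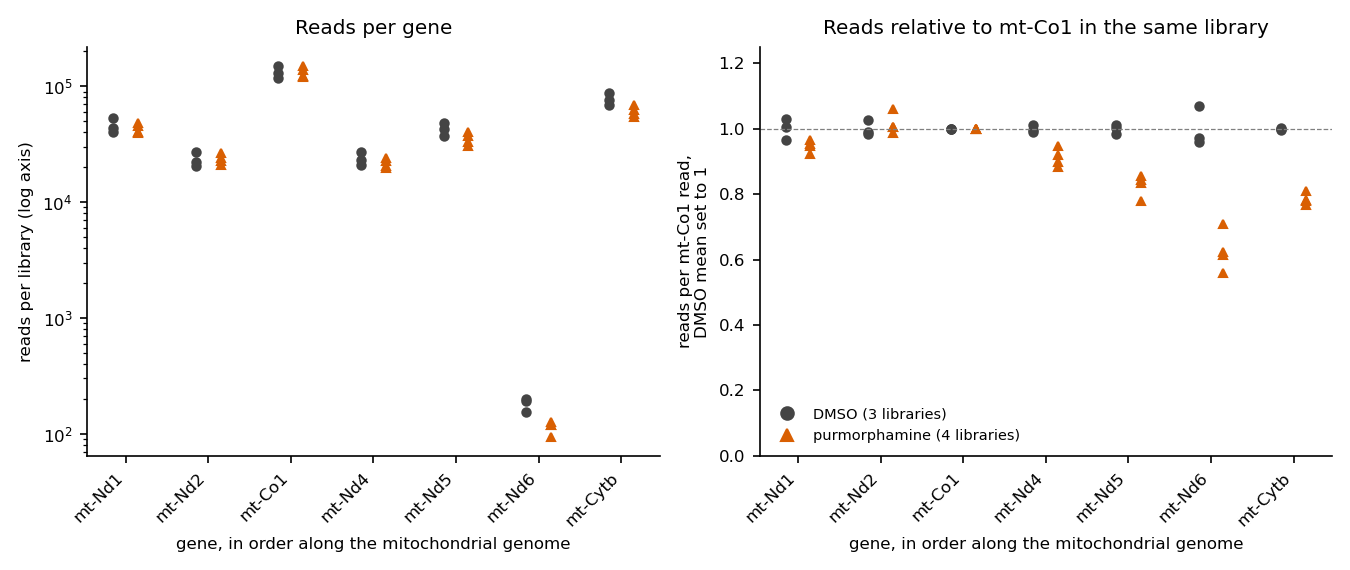
Left, reads per library of the 7 mitochondrially encoded genes (log axis) with DMSO (circles, n = 3) or purmorphamine (triangles, n = 4), in order along the mitochondrial genome. Right, reads of each gene divided by the mt-Co1 reads of the same library with the DMSO mean set to 1, where mt-Nd4, mt-Nd5, mt-Nd6 and mt-Cytb lie below DMSO in every purmorphamine library and mt-Nd2 overlaps.

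The libraries were ordered differently by the nuclear and by the mitochondrially encoded members. The median over nuclear members of the log2 level, set against the DMSO mean of each gene, was -0.02, -0.03 and 0.06 in DMSO replicates 2, 3 and 4 and -0.06, -0.12, -0.22 and -0.18 in purmorphamine replicates 5, 6, 7 and 8. All 4 purmorphamine libraries lay below all 3 DMSO libraries. For the mitochondrially encoded members these medians were 0.19, -0.03 and -0.17 with DMSO and -0.10, -0.26, -0.02 and -0.31 with purmorphamine, and the groups overlapped. The pooled SD within groups was 0.061 for the nuclear and 0.16 for the mitochondrially encoded members. DMSO replicate 2 had the highest mitochondrial median and DMSO replicate 4 the lowest of the DMSO libraries, whereas DMSO replicate 4 had the highest nuclear median. Without DMSO replicate 2 the median log2 fold change of the mitochondrially encoded members was -0.07, and without DMSO replicate 4 it was -0.26.

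**Figure D4:**
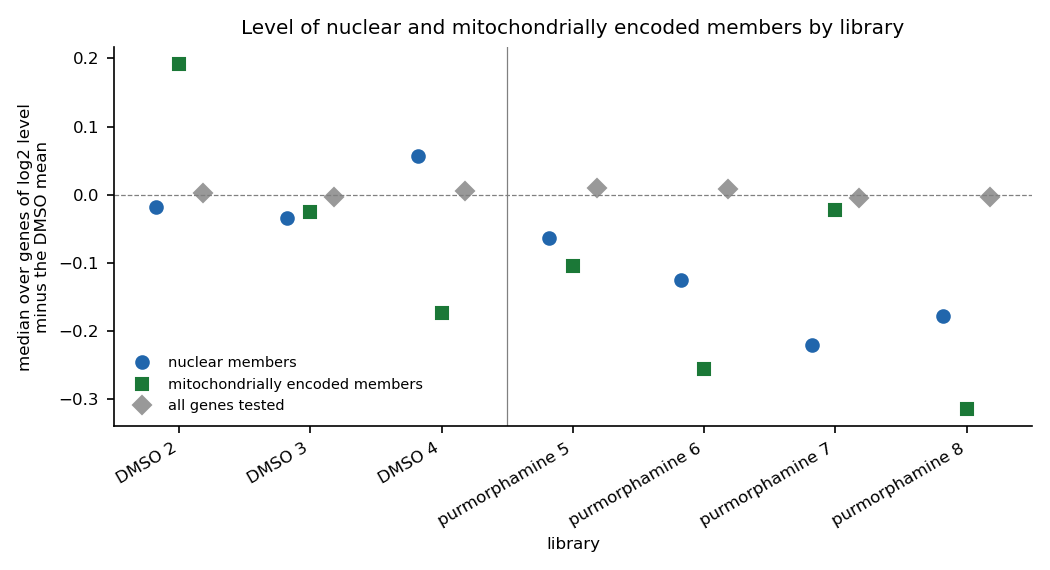
Median over genes of the log2 level relative to the DMSO mean (vertical axis) in each of the 7 libraries, for the nuclear members (circles), the mitochondrially encoded members (squares) and all genes tested (diamonds). The nuclear medians of the 4 purmorphamine libraries lie between -0.22 and -0.06, below the 3 DMSO libraries, while the mitochondrial medians overlap and the medians of all genes stay near 0.

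Across the 76 nuclear members, which share the libraries and the counting, the log2 fold change went with GC content (Spearman's rho 0.43), where over all genes tested it did not (rho -0.01). Median GC content of the exons was 48.8% for the 45 nuclear members that fell, 53.6% for the 5 that rose and 53.6% for the 26 not called. With the trend in GC content and length over all genes removed, rho was 0.44, and 51 of the 83 members were lower and 5 higher, beside 40.3% lower and 27.5% higher of all genes tested. Nuclear members had a median exon length of 1737 bases, against 4534 for all genes tested.

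Genes that serve the same complexes but lie outside these families were examined by list. Of 5 subunits with other names, 3 fell and 0 rose, with a median log2 fold change of -0.13. Usmg5, a small ATP synthase subunit, fell from 496, 493 and 545 reads to 431, 381, 392 and 384 (log2 fold change -0.41, SE 0.070, adjusted p = 0.000119). Cyc1, the cytochrome c1 of complex III, had 512, 433 and 548 against 464, 450, 390 and 408, with overlap (log2 fold change -0.27, SE 0.085, adjusted p = 0.0169). Among assembly factors, 38 of 55 were tested, and 11 fell and 6 rose, with a median of -0.04. These were 28.9% and 15.8% of those tested, beside 31.1% lower and 31.4% higher of all genes tested. Whether the assembly factors differed from the subunits was not tested. Higd1a, a factor that associates with complexes III and IV, had the lowest log2 fold change, -0.68 (SE 0.069, adjusted p = 3.8e-07), and Acn9 (Sdhaf3), a factor of complex II, had the highest, 0.84 (SE 0.12, adjusted p = 1.69e-05), with 107, 105 and 87 reads for DMSO and 201, 168, 200 and 168 for purmorphamine. Sdhaf1, another factor of complex II, fell (log2 fold change -0.46, SE 0.14, adjusted p = 0.011), and Ecsit, a complex I factor, rose (0.33, SE 0.13, adjusted p = 0.053).

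Of 26 tested genes for carriers, ubiquinone synthesis and coupling, 12 (46.2%) fell, 1 rose and 13 were not called, with a median of -0.11, beside 31.1% lower among all genes tested. Slc25a5, an exchanger of ADP and ATP, changed most, from 2267, 2322 and 2381 reads to 1433, 1349, 1264 and 1466 (log2 fold change -0.80, SE 0.052, adjusted p = 1.24e-09). Its relative Slc25a4 fell from 5807, 5506 and 5919 to 5022, 4994, 4667 and 4919 (log2 fold change -0.28, SE 0.046, adjusted p = 9.6e-05). Cycs, somatic cytochrome c, fell from 288, 281 and 300 to 256, 209, 209 and 250 (log2 fold change -0.37, SE 0.090, adjusted p = 0.0027). The phosphate carrier Slc25a3 was at -0.10 (SE 0.043, adjusted p = 0.0627), a call that was lost with library totals alone. The gene that rose, Etfa, encodes a subunit of the electron transfer flavoprotein of fatty acid oxidation and had a log2 fold change of 0.33 (SE 0.049, adjusted p = 3.2e-05). Ucp2, an uncoupling protein homolog, had at most 8 reads in any library and was not tested.

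For pyruvate dehydrogenase and the citric acid cycle, 13 of 19 (68.4%) fell and 1 (5.26%) rose, beside 31.1% lower and 31.4% higher of all genes tested. The median was -0.15, the same as that of the members. Citrate synthase, Cs, had 4214, 4211 and 4389 reads with DMSO and 3990, 3968, 3629 and 3964 with purmorphamine (log2 fold change -0.18, SE 0.046, adjusted p = 0.0038). Suclg2, a subunit of succinyl-CoA ligase, was lowest at -0.61 (SE 0.057, adjusted p = 1.17e-07), followed by Pdhb, a subunit of pyruvate dehydrogenase, at -0.34 (SE 0.053, adjusted p = 3.95e-05). Dld, the dehydrogenase shared by several of these enzymes, was at -0.11 (SE 0.053, adjusted p = 0.111) and lost its call with library totals alone, with DESeq2 and without DMSO replicate 2 or 4 or purmorphamine replicate 5 or 6. Pcx, pyruvate carboxylase, was the gene that rose, at 0.22 (SE 0.070, adjusted p = 0.0153). Of 75 genes for mitochondrial ribosomal proteins, 30 (40%) fell and 4 (5.33%) rose, with a median of -0.10. The shares over all genes tested were again 31.1% lower and 31.4% higher. Mrps12 was lowest, with 147, 149 and 144 reads against 77, 64, 77 and 78 (log2 fold change -1.03, SE 0.11, adjusted p = 9.72e-07), and Mrps28 followed at -0.58. Mrpl18 and Mrps33 rose, by 0.23 and 0.24, the call of Mrps33 being lost with DESeq2 and without DMSO replicate 2 or 3 or purmorphamine replicate 5. Of the 20 genes of the Tomm and Timm families, which include the protein import machinery, 11 (55%) fell and 3 (15%) rose. Their median was -0.19, and 31.1% of all genes tested were lower and 31.4% higher. Timm10 and Tomm40 were lowest at -0.56 and -0.51, and Tomm40l and Tomm34 were highest at 0.32 and 0.20.

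Genes for the expression of mitochondrial DNA were called in both directions equally often, and less often than all genes tested. Of 33 tested, 6 (18.2%) fell and 6 (18.2%) rose, with a median of -0.01. The shares over all genes tested were 31.1% lower and 31.4% higher. Tfam, which packages mitochondrial DNA and starts its transcription, had 1089, 1057 and 1099 reads with DMSO and 1206, 1111, 1190 and 1200 with purmorphamine (log2 fold change 0.07, SE 0.050, adjusted p = 0.241). Polrmt, the mitochondrial RNA polymerase, had 135, 199 and 153 against 173, 185, 160 and 154, and its log2 fold change of 0.0026 (SE 0.12, adjusted p = 0.99) was negative after removal of the trend in GC content and length. Hsd17b10 and Elac2, which take part in cutting tRNAs from the mitochondrial transcripts, fell, with log2 fold changes of -0.38 (SE 0.059, adjusted p = 5.53e-05) and -0.33 (SE 0.072, adjusted p = 0.0011). Polg2, the accessory subunit of the mitochondrial DNA polymerase, rose at 0.50 (SE 0.13, adjusted p = 0.004), as did Top1mt, the mitochondrial topoisomerase, at 0.36 (SE 0.17, adjusted p = 0.0876), a call that was lost with DESeq2 and without DMSO replicate 4 or purmorphamine replicate 6.

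Regulators of mitochondrial biogenesis were called in both directions, at shares near those of all genes tested. Of 16 tested, 5 (31.25%) fell and 4 (25%) rose, with a median of 0.07. Over all genes tested, 31.1% were lower and 31.4% higher. Ppargc1a, the coactivator PGC-1α, had 17, 26 and 20 reads with DMSO and 2, 2, 3 and 2 with purmorphamine (log2 fold change -3.20, SE 0.37, adjusted p = 1.85e-06). These counts are few, and the purmorphamine level lies at or under 3 reads in each library. Ppargc1b had 0, 5 and 1 reads against 12, 5, 6 and 12 and was not tested. Pprc1, the third coactivator of this family, had 629, 698 and 622 against 569, 620, 552 and 537 (log2 fold change -0.24, SE 0.065, adjusted p = 0.0066). Nrf1 itself was not called, at 363, 401 and 367 reads against 442, 442, 373 and 429 (log2 fold change 0.11, SE 0.075, adjusted p = 0.231), and neither was Esrra, at 50, 54 and 62 against 86, 74, 49 and 52 (0.19, SE 0.19, adjusted p = 0.443). Esrrg rose from 10, 18 and 13 reads to 24, 20, 35 and 44 (log2 fold change 1.12, SE 0.31, adjusted p = 0.0071). Hif1a, the oxygen-regulated factor that favors glycolysis, fell from 4151, 3973 and 3995 to 2910, 2892, 3084 and 3063 (log2 fold change -0.48, SE 0.046, adjusted p = 1.55e-07). Prkaa1, a catalytic subunit of the AMP-activated kinase, rose from 1917, 1957 and 1852 to 2495, 2550, 2695 and 2577 (log2 fold change 0.39, SE 0.047, adjusted p = 3.07e-06).

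**Figure D5:**
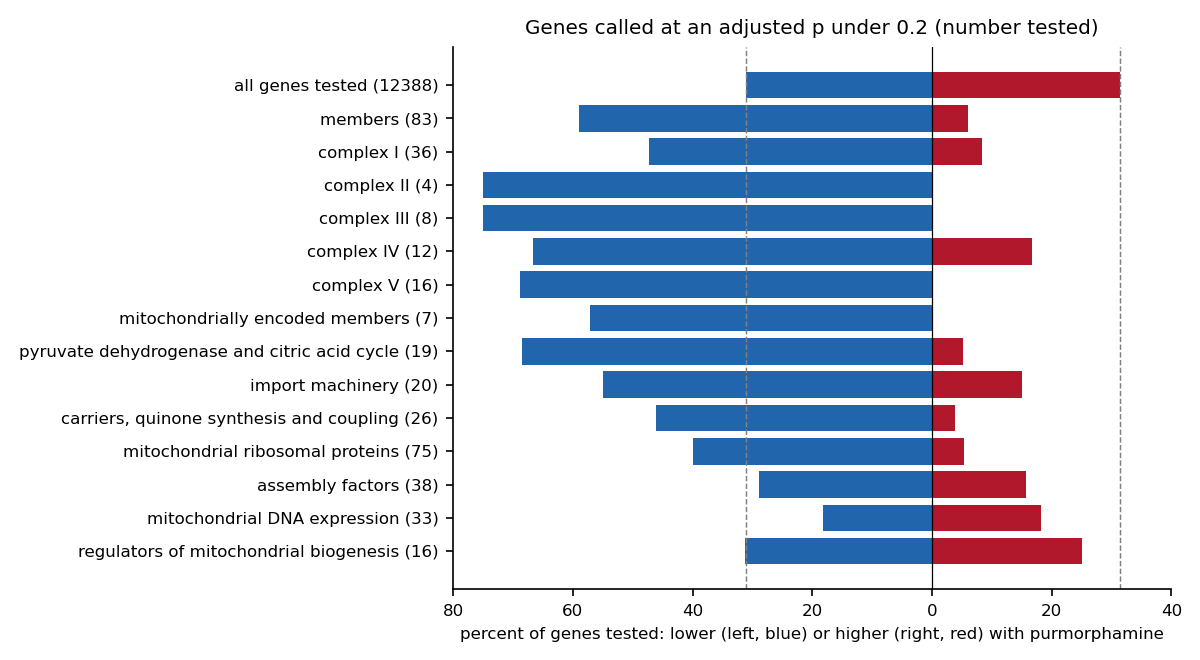
Percent of the genes tested that were called lower (left of 0) or higher (right of 0) at an adjusted p under 0.2 for all genes, the members, each complex and the related gene lists, with the number tested in parentheses. The dashed lines mark all genes tested (31.1% lower and 31.4% higher), and the members, at 59.0% lower and 6.02% higher, lie beyond the line on the left and short of it on the right.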

How the data were processed

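Total RNA depleted of ribosomal RNA was sequenced from 7 libraries. The authors aligned the reads (the submitters' processing notes name STAR 2.5.3a and mm9), resampled them to equal numbers, counted sense-strand reads per gene and deposited these counts. No per-sample column was left unused (0). The members and lists were chosen with earlier results of these data known.

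From the counts, edgeR 4.0.16 (limma 3.58.1, R 4.3.3) was run on the whole table with TMM factors, its default filter on low counts (minimum 10, total 15) and no covariates, and purmorphamine was compared with DMSO by the quasi-likelihood test. Benjamini-Hochberg adjustment ran over the 12388 genes left, and a gene was called at an adjusted p under 0.2. Standard errors were taken from the fold change and its F statistic. Exact permutation tests used log2 of the scaled count with 1 added. Non-overlap refers to TMM-scaled counts. Exon lengths and GC content came from GENCODE M21 and promoters from RefSeq (GRCm38.p6). Positions of genes are those of the table and were not converted.

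Genes were named by rule: the mitochondrially encoded members, the 3 highest and 3 lowest called nuclear members of each complex, core subunits, isoform groups, rows nearest the minimum, a set of regulators and carriers, and the 2 highest and 2 lowest called genes of each list. A gene that this rule also covers is left out of the text. Atp5d, Uqcr10 and Uqcr11 were named after their values were seen. Assembly factor Atp5sl is also a member by its symbol. The calculations were tested on simulated counts for this comparison with 12182 genes. There, 77% of 100 genes changed by 0.4 on the log2 scale and 96% of 100 changed by 1 were recovered. Of the calls made there, 23.8% were false. Recovery of changes as small as the median of the members, -0.15, was not tested. The share of false calls among the members was not tested either. The alternatives tried were DESeq2 1.42.0, limma-voom, other scalings, filters and thresholds, removal of a trend in GC content and length, and each library left out. Leaving out Cox4nb, Atp5s and Atp5sl, which are not subunits of the complexes, and counting Ndufa4 in complex IV were added after seeing the data.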

Additional observations from a re-analysis of the deposited data

Results flagged for a closer look

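Among the 81 named genes that were examined for a single purmorphamine library standing apart from the other 3 (TMM-scaled counts, n = 4), 8 had such a library, where chance alone would give about 4.05. The value given is the gap between that library and its nearest neighbor as a share of the range of the group, with 1 as the most it can be. In purmorphamine replicate 7, Atp5b (0.929, 12689 reads against 13514 to 13558), Atp5a1 (0.942, 7245 against 7911 to 7985) and Cs (0.879, 3629 against 3964 to 3990) were low. In the same library Ppargc1a was high (0.991), but the counts were 3 against 2, 2 and 2. In replicate 6, Tfam (0.911, 1111 against 1190 to 1206) and Mrps12 (0.943, 64 against 77 to 78) were low. In replicate 5, Uqcrh was high (0.914, 3951 against 3489 to 3570) and Sdhaf1 low (0.835, 56 against 71 to 73). Atp5b, Atp5a1, Cs and Mrps12 were called lower with and without these libraries in each of the fits that left out 1 library.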

How the results depend on the processing

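No paired analysis was possible because DMSO replicates are numbered 2 to 4 and purmorphamine replicates 5 to 8. The medians of the members, of each complex and of both genomes stayed negative in every alternative run. Of 54 members called, none was called in the other direction by another fit; 43 kept their call with library totals alone (which moved the median gene by 0.048), 45 with DESeq2, 53 with limma-voom and 40 to 51 with 1 library left out. The 49 members lower became 1 at 1.5-fold or more, and so did the 4 mitochondrially encoded ones (1). The 5 higher became 3 with DESeq2, 1 at an adjusted p under 0.05, 0 at 1.5-fold or more, 3 at a mean of 200 reads or more, and 2 to 7 with 1 library left out.

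Values near 0, none of which was called with all libraries, changed sign. With library totals alone, the log2 fold changes were 0.0233 for mt-Nd2, 0.00530 for mt-Co1, 0.0399 for Sdha and 0.0230 for Cox8a. With the trend in GC content and length removed, Cox8a was at 0.00358 and Polrmt at -0.0786. With 1 library left out, the range was -0.19 to 0.00301 for mt-Nd1, -0.10 to 0.10 for mt-Nd2, -0.11 to 0.0607 for mt-Co1, -0.0365 to 0.0120 for Sdha, -0.0212 to 0.0877 for Cox4i1, -0.0680 to 0.0462 for Cox8a and -0.11 to 0.17 for Polrmt. The cause was not tested. With 3 and 4 libraries the permutation test cannot go below p = 0.0286, and changes of the size seen here depend on a spread estimated across all genes.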
